A study of Mus musculus with 22 samples.

Results

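The genes described here are processed pseudogenes, intron-free copies of messenger RNAs, that gave a signal in mouse retinal microglia. They were chosen as the rows of the deposited table whose gene type is processed pseudogene and whose normalised count reached 30 in at least 5 of the 22 libraries. This left 177 of 4876 processed pseudogenes (3.63%), which made up 1.38% of the 12868 genes of any type that passed the same filter. The level chose the members and the genotype contrast did not, but the choice is not free of it: 26 members reached 30 in KO libraries only, 0 in control libraries only and 151 in libraries of both genotypes. Microglia, the resident macrophages of the retina, were sorted as CD45 low, CD11b+, Ly6C-, Ly6G- and Tom+ cells from mice labelled as knockout (KO) for Vldlr, the very low density lipoprotein receptor, or as control. The 4 groups were P17 control (7 libraries), P17 KO (5), P31 control (5) and P31 KO (5), where P17 and P31 are postnatal days 17 and 31. The labels give no strain, no description of the knockout allele or of the Tom reporter, and no statement that libraries came from separate animals, so the p-values reflect library-to-library spread, which may be technical.

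A processed pseudogene forms when the enzymes of a retrotransposon copy a spliced messenger RNA back into DNA and insert it elsewhere in the genome. The copy therefore lacks introns, usually lacks the promoter of its source, and collects its own base changes with time. Genes with abundant messenger RNA in the germline, among them those for ribosomal proteins, are frequent sources. A short read that lies where copy and source are identical can have come from either, so a copy is told from its source only where their bases differ. How reads that match both were counted here is not stated by the labels or the processing notes, so the values of copies with few unique stretches are uncertain.

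Read totals were 25.5 to 32.3 M per library in P17 controls, 23.9 to 33.7 M in P17 KO, 30.8 to 54.0 M in P31 controls and 29.0 to 39.6 M in P31 KO. All 12 microglia markers looked at were detected and 0 of them differed between genotypes at either age. Vldlr was at 53.7 to 786 normalised counts in the P17 controls and 0 to 16.8 in the P17 KO, but it was at 0 in 4 of the 5 P31 controls and at 802 in the other, so it did not check the P31 labels. P17 KO library 1 stood apart: its summed microglia markers were 698100 against 2115000 to 2624000 in the other P17 KO libraries, and its deposited size factor was 0.814 against 0.353 by DESeq2 on the same reads. Y-linked reads were present in all 7 P17 controls (summed level 2189 to 6030) but only in P17 KO libraries 1 and 4 (795 and 1822), and at P31 in control libraries 1 and 5 (7414 and 4052) and at no more than 0.903 in any KO library. Xist, the RNA of the inactive X chromosome, was at 0 to 4496 in P17 controls and 2328 to 9786 in P17 KO. At P31 it was at 0 to 7713 in controls and 6139 to 10330 in KO. P17 control libraries 4 and 6 held Xist (2192 and 4496) beside Y-linked reads, as did P17 KO libraries 1 and 4 (2862 and 2328). Sex-linked reads were thus unevenly spread between the genotypes. Of 6 markers of Mueller glia and astrocytes, Slc1a3, a glutamate transporter, was higher in the KO (median 1773 against 57420 at P17 and 2346 against 66950 at P31), and 0 of the other 4 tested differed. Rod markers, 10 of 10 tested, summed to 20770 to 308300 in P17 controls, 7983 to 63330 in P17 KO, 3120 to 62640 in P31 controls and 9565 to 83110 in P31 KO, and 0 of them differed. Whether Slc1a3, Y-linked reads or rod reads have a part in the results below was not tested beyond 2 fits. With the Y-linked level as a covariate 28 members were higher at P17 and 32 at P31, and with the rod level 31 and 32. In sorted bulk samples, fewer cells of a type and less RNA per cell cannot be told apart.

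The sequences below show how little separates several copies from their coding relatives, the transcripts they match best. Each pair gives 61 bases, 5′ to 3′ on the strand of the gene, from GENCODE vM21 transcripts on mm10, and capitals mark the bases at which copy and relative differ. Substitutions are written with the relative's base first, then the position counted from 1 at the copy's annotated 5′ end, then the copy's base, and those listed all lie in the relative's coding sequence. Ndufs5-ps (copy at chr16:42955681-42955741, Ndufs5 exon 2 at chr4:123715969-123716029 on the minus strand) carries T81C and A105G. Atp6v0c-ps2 (chr6:37806166-37806226, Atp6v0c exon 2 at chr17:24164821-24164881, minus strand) carries T111C. Gm13453 (chr2:40127739-40127799, minus strand) is a copy of Atp6v1g1, and its window runs across the junction of exons 1 and 2, which lie within chr4:63544979-63548624. It carries G92A, and C182A outside the window. Rps13-ps1 (chr8:87048100-87048160) runs across the junction of Rps13 exons 5 and 6, within chr7:116331565-116332420 on the minus strand, and carries T442C and A460G. Rps3a3 (chr13:108670788-108670848, Rps3a1 exon 3 at chr3:86141347-86141407, minus strand) carries 9 substitutions, of which T216C is shown. Pcna-ps2 (chr19:9283492-9283552, Pcna exon 1 at chr2:132252863-132252923, minus strand) carries 6, of which A143G is shown.
Ndufs5-ps: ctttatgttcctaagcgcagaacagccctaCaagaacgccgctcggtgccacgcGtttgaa
Ndufs5: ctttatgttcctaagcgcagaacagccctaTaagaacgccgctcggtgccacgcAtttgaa
Atp6v0c-ps2: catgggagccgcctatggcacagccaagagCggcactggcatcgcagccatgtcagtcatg
Atp6v0c: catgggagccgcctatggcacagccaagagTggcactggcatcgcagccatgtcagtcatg
Gm13453: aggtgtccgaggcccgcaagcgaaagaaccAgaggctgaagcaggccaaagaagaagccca
Atp6v1g1: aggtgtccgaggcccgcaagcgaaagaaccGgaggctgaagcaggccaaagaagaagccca
Rps13-ps1: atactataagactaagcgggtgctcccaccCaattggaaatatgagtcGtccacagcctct
Rps13: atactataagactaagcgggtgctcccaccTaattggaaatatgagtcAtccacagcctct
Rps3a3: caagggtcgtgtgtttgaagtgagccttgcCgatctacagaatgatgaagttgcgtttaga
Rps3a1: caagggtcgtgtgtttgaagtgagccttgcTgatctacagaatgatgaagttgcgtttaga
Pcna-ps2: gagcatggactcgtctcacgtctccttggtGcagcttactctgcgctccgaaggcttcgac
Pcna: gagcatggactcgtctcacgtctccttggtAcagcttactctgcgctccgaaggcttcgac

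In the KO, a set of these copies rose, most of them from a control mean under 20 normalised counts and the others from at most 97.1, to means between 36.1 and 4002 at P17, while most members did not pass the test. With limma on log2(normalised count + 10) and Benjamini-Hochberg adjustment over all genes, 31 of the 177 were higher and 2 lower in the KO at P17 (17.5% and 1.13%), against 0.769% higher and 0.746% lower, 1.52% in all, among the 12868 genes tested. At P31, 34 were higher and 2 lower (19.2% and 1.13%), against 1.69% higher and 1.19% lower, 2.88% in all. Among protein-coding genes 0.501% were higher at P17 and 1.49% at P31. Copies thus made up 31.3% of all genes called higher at P17 and 15.6% at P31.

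Every KO library lay above every control library of the same age for 32 of the 177 members at P17 and 43 at P31, against 1.37% and 3.04% of all tested genes. These include the 31 and 34 members called higher, for which it is a description of the call and no further evidence. The median log2 fold change was 0.17 at P17 and 0.30 at P31 over the 177 members. The filter builds in part of this value, since 26 members passed it through KO libraries only, with medians of 2.81 at P17 and 2.78 at P31. Over the 151 members that passed through both genotypes the median was 0.03 at P17 and 0.18 at P31. Over the 12743 tested genes that passed in that way it was -0.3 and -0.05. Over protein-coding genes, not split by route, it was -0.32 and -0.04. The median of all tested genes at P17 was -0.30 under the deposited scaling, so values at P17 lie 0.30 higher when counted from that median. This offset depends on 1 library and its scaling: the median was -0.033 without P17 KO library 1 and -0.08 with DESeq2 size factors.

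The filter shaped these counts. Of the 34 members higher at either age, 24 reached 30 in KO libraries only, and such a gene had to differ to enter. Of 60 genes of any type that passed through KO libraries only, 26 were processed pseudogenes, and of 65 that passed through control libraries only, 0 were. Among the 151 members that passed through both genotypes, 10 were higher at P17 and 10 at P31 (6.62% each), against 0.479% and 1.35% of the 12743 genes that passed in that way.

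**Figure D1:**
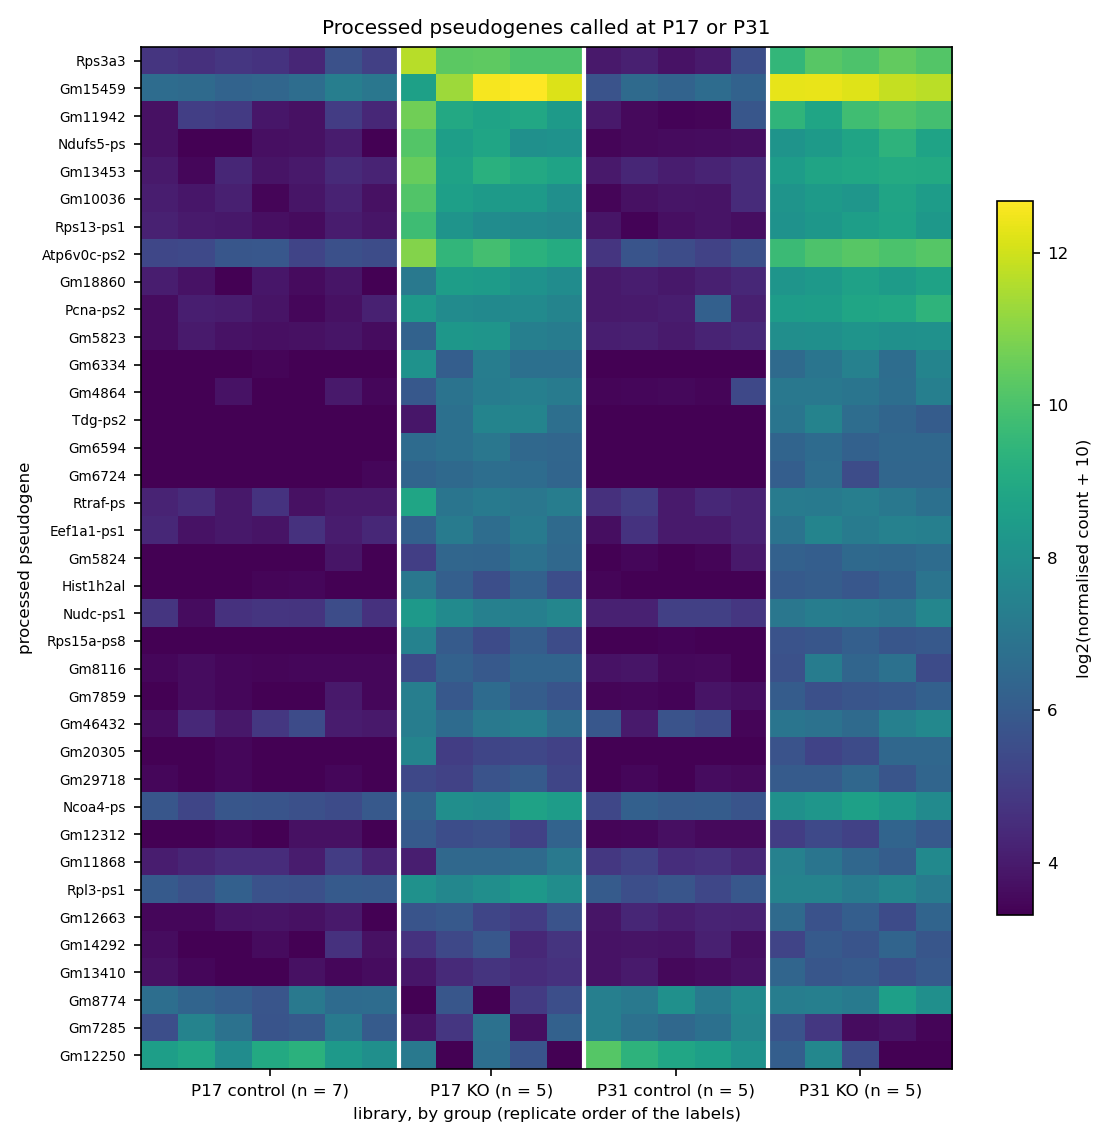
Levels of the 37 processed pseudogenes called at P17 or P31 (rows) in each of the 22 libraries (columns, by group), as log2(normalised count + 10). The upper 34 rows are dark in both control groups and light in both KO groups, with P17 KO library 1 brighter or darker than its group in several rows, and the lowest 3 rows hold the members called lower.

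Among the copies of ribosomal protein genes, Rps3a3 had the highest fold change on the log2(value + 10) scale. Rps3a3 (ENSMUSG00000059751, chr13:108670603-108671397), a copy of Rps3a1, which encodes a protein of the small ribosomal subunit, lies on the strand of Pde4d within that gene. Its normalised counts were 9.85 to 40.1 (median 17.3) in P17 controls and 3218, 1258, 1301, 1055 and 1073 in P17 KO. P31 controls were at 5.5, 7.51, 3.74, 5.81 and 37.9, and the P31 KO libraries at 723, 1193, 1068, 1385 and 1158. The highest control lay far below the lowest KO library at both ages, and P17 KO library 1 was the highest of all. The log2 fold change was 5.64 ± 0.41 at P17 (SE, adjusted p = 4.96e-09) and 5.81 ± 0.44 at P31 (adjusted p = 2.02e-08). Pde4d itself was at a mean of 15.3, 14.5, 25.3 and 10.3 in P17 control, P17 KO, P31 control and P31 KO, below the level of Rps3a3 in the KO, and it did not pass the filter.

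Gm11942 (chr4:32964888-32965232) is 97.4% identical to Rplp1, which encodes a stalk protein of the large ribosomal subunit, and 97.7% to Gm10073. It was at 3.28 to 23.1 (median 10.3) in P17 controls and at 1576, 486, 418, 483 and 330 in P17 KO. The controls at P31 were at 5.5, 1.73, 0.75, 0.83 and 47.4, and the P31 KO libraries at 686, 437, 884, 1089 and 926. P17 KO library 1 and P31 control library 5 were the highest of their groups, and the genotypes did not overlap. Its log2 fold change was 4.75 ± 0.50 (SE, adjusted p = 1.28e-06) at P17 and 5.56 ± 0.54 (adjusted p = 3.65e-07) at P31.

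Rps13-ps1 (chr8:87047689-87048226), 99.6% identical to Rps13 of the small subunit, was at 2.19 to 8.07 (median 5.11) in P17 controls and at 855, 278, 222, 212 and 189 in P17 KO. The P31 controls lay at 4.58, 0.58, 2.99, 4.15 and 2.84, and the P31 KO libraries at 265, 297, 372, 419 and 307. No control library reached a KO library, and the log2 fold changes were 4.34 ± 0.40 (SE, adjusted p = 1.71e-07) and 4.70 ± 0.43 (adjusted p = 1.37e-07). Gm10036, a copy of Rpl11 of the large subunit, rose from a mean of 5.28 ± 2.66 (SD, n = 7) to 477 ± 352 (SD, n = 5) at P17 and from 5.07 ± 4.29 to 337 ± 59.9 (SD, n = 5 each) at P31. Rps15a-ps8 had 0 reads in all 7 P17 controls and a mean of 69.7 ± 55.6 in P17 KO, at least 20.4-fold higher than the mean level of 3 reads per library. Without P17 KO library 1 the mean was 45.3 and the bound 13.3-fold, and the P17 KO means of Gm11942 and Rps13-ps1 fell from 659 to 429 and from 351 to 225. Rpl3-ps1, on chromosome X, began higher, at 48.7 ± 9.32 in P17 controls, and reached 244 ± 43.0 in P17 KO.

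In number, the copies of ribosomal protein genes did not lead. Of 46 members whose closest relative encodes a cytosolic ribosomal protein, 6 were higher at each age (13.0% at P31), and of the other 131 members 25 were higher at P17 and 28 at P31 (21.4%). Of 80 cytosolic ribosomal protein genes tested, 0 were higher and 0 lower at either age. Of all tested genes, 0.769% were higher and 0.746% lower at P17, and 1.69% and 1.19% at P31. At these shares 80 genes would give few calls, so 0 calls do not set the family apart. The log2 fold changes of the 80 genes had medians of 0.41 (P17) and 0.43 (P31), against -0.296 and -0.052 over all tested genes. Of 42 other genes that are frequent sources of such copies, 0 were higher and 1 lower at P17, and 3 were higher and 0 lower at P31.

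Of 3 members that are copies of subunit genes of the vacuolar proton pump, the enzyme that acidifies lysosomes, 2 were higher, and Gm18990, a copy of Atp6v1a, was not called (mean 15.9 in P17 controls and 25.6 in P17 KO, adjusted p = 0.759). Gm13453 (ENSMUSG00000083240, chr2:40127504-40127860), the copy of Atp6v1g1, was at 1.217 to 11.9 (median 5.76) in P17 controls and 1423, 413, 599, 493.1 and 422 in P17 KO. P31 control libraries were at 5.5, 9.82, 6.73, 9.12 and 12.3, and the P31 KO libraries at 346, 426, 462, 513 and 498. The lowest KO library lay far above the highest control at both ages, with log2 fold changes of 5.20 ± 0.39 (SE, adjusted p = 6.75e-09) and 4.62 ± 0.42 (adjusted p = 1.37e-07).

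Atp6v0c-ps2 (chr6:37806086-37806550), which differs from Atp6v0c at 1 aligned base, was at 27.4 to 48.8 (median 35.6) in P17 controls and at 1967, 711, 924, 620 and 528 in P17 KO. P31 controls were at 17.4, 44.5, 35.1, 25.7 and 38.9, and the P31 KO libraries at 822, 1071, 1205, 1026 and 1171. The groups did not overlap, and the log2 fold changes were 4.20 ± 0.36 (SE, adjusted p = 4.63e-08) and 4.69 ± 0.38 (adjusted p = 4.87e-08). Only 9.86% of its 50-base words were unique to it among the annotated transcripts, so most reads of its length cannot tell it from Atp6v0c.

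The copy with the highest level was Gm15459 (ENSMUSG00000100801, chr5:5781615-5783555), 99.7% identical to Hspa8, which encodes a constitutive chaperone of the heat shock 70 family. It was at 69.0 to 149 (median 88.7) in P17 controls and at 391, 2519, 5903, 6530 and 4667 in P17 KO. Its P31 controls were at 42.2, 84.3, 68.8, 88.8 and 66.3, and the P31 KO libraries at 5107, 5271, 4736, 3661 and 3365. P17 KO library 1 was the lowest of its group and still lay above every control. The log2 fold changes were 4.77 ± 0.48 (SE, adjusted p = 6.83e-07) and 5.80 ± 0.52 (adjusted p = 1.31e-07), and unique 50-base words made up 1.16% of this copy.

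Ndufs5-ps (ENSMUSG00000081824, chr16:42955631-42955949), on the strand of Zbtb20 within that gene, is a copy of Ndufs5, a subunit of respiratory complex I. It was at 0 to 6.5 (median 2.99) in P17 controls and 1157, 369, 447, 246 and 262 in P17 KO. Controls at P31 were at 0.92, 1.73, 2.24, 2.49 and 2.84, and the P31 KO libraries at 276, 329, 435, 659 and 416. Every KO library held far more than any control, with log2 fold changes of 5.14 ± 0.41 (SE, adjusted p = 2.34e-08) and 5.11 ± 0.45 (adjusted p = 1.05e-07). Zbtb20, the gene around it, was at a mean of 944 and 682 in P17 control and KO and 1030 and 661 at P31, with adjusted p of 0.434 and 0.822.

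Pcna-ps2 (chr19:9283380-9284160), a copy of the gene for the replication clamp, was at 1.09 to 8.04 (median 3.98) in P17 controls and at 318, 217, 206, 215 and 177 in P17 KO. Values in P31 controls lay at 5.5, 5.78, 6.73, 62.2 and 7.58, and the P31 KO libraries at 346, 360, 437, 481 and 671. Control library 4 was the only P31 control above 10 and remained below the KO. Its log2 fold changes were 4.01 ± 0.42 (SE, adjusted p = 1.28e-06) and 4.37 ± 0.46 (adjusted p = 1.19e-06).

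Tdg-ps2 (chr10:42054113-42055306), a copy of the gene for the repair enzyme thymine DNA glycosylase, had 0 reads in all 12 controls. It was at 4.91, 98.5, 175, 179 and 97.9 in P17 KO and at 114, 173, 92.5, 72.3 and 55.6 in P31 KO, at least 32.5-fold and 42.1-fold higher than the mean level of 3 reads per control library. P17 KO library 1 was low here. Gm6594 and Gm6724, copies of Hmgn2, which encodes a nucleosome-binding protein, gave 0 and 1 reads over all controls and means of 92.9 ± 19.1 and 81.5 ± 10.2 in P17 KO.

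Among the remaining copies, Gm18860 (chr8:71704205-71704968), a copy of Cnot8, a subunit of the main messenger RNA deadenylase, was at 0 to 6.91 (median 3.65) in P17 controls and at 128, 363, 338, 265 and 226 in P17 KO. The 5 P31 controls were at 5.5, 6.93, 5.23, 7.47 and 10.4, and the P31 KO libraries at 284, 311, 403, 342 and 414. The groups did not overlap, with log2 fold changes of 4.32 ± 0.37 (SE, adjusted p = 4.63e-08) and 4.39 ± 0.40 (adjusted p = 1.37e-07). Other members higher at both ages included copies of Arf1, Pkig, Hdac1 (2 copies), Rtraf, Nudc, Nfu1, Hmgb1, Eef1a1, Carnmt1, Polr2k, Fgfr1op2, Ncoa4 and Ublcp1, and Hist1h2al, whose closest relative is the intronless histone gene Hist2h2aa2. Over all members called higher, log2 fold changes ran from 1.89 to 5.64 at P17 and from 1.69 to 5.81 at P31, and the control mean was under 20 for 27 of 31 and 29 of 34.

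All 31 members higher at P17 were also higher at P31, which is 100% of the P17 list and 91.2% of the P31 list. Of these 31, 21 had passed the filter through KO libraries only, so part of this overlap is built in by the filter. The same overlap over all tested genes is not given here. Over the 177 members, Pearson's r between the effects at P17 and P31 was 0.91 and Spearman's rho 0.66, across genes that share the same libraries and are not independent replicates, and 125 had the same sign at both ages. Over all 12868 genes r was 0.30, rho 0.25 and 61.5% had the same sign. The filter builds in part of the members' value, since 26 entered through KO libraries only. Over the 151 members that passed through both genotypes r was 0.84 and rho 0.46, against 0.26 and 0.23 over the 12743 genes of that kind, a subset chosen after seeing the data. Among the 140 members called at neither age, r was 0.38 and 89 had the same sign. The difference between the KO effects itself passed the test for 0 of the 177 members, against 0.0466% of all genes (0.0311% more positive and 0.0155% more negative at P31). At an unadjusted p under 0.05 it was 5 of the 177 members, against 1027 of the 12868 genes. The difference passed for 0 members by edgeR and by DESeq2 as well, against 3 and 185 of all genes. For the 31 members it lay between -0.63 and 1.04 on the log2 scale with standard errors of 0.49 to 0.75, so differences of that size were within the error.

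**Figure D2:**
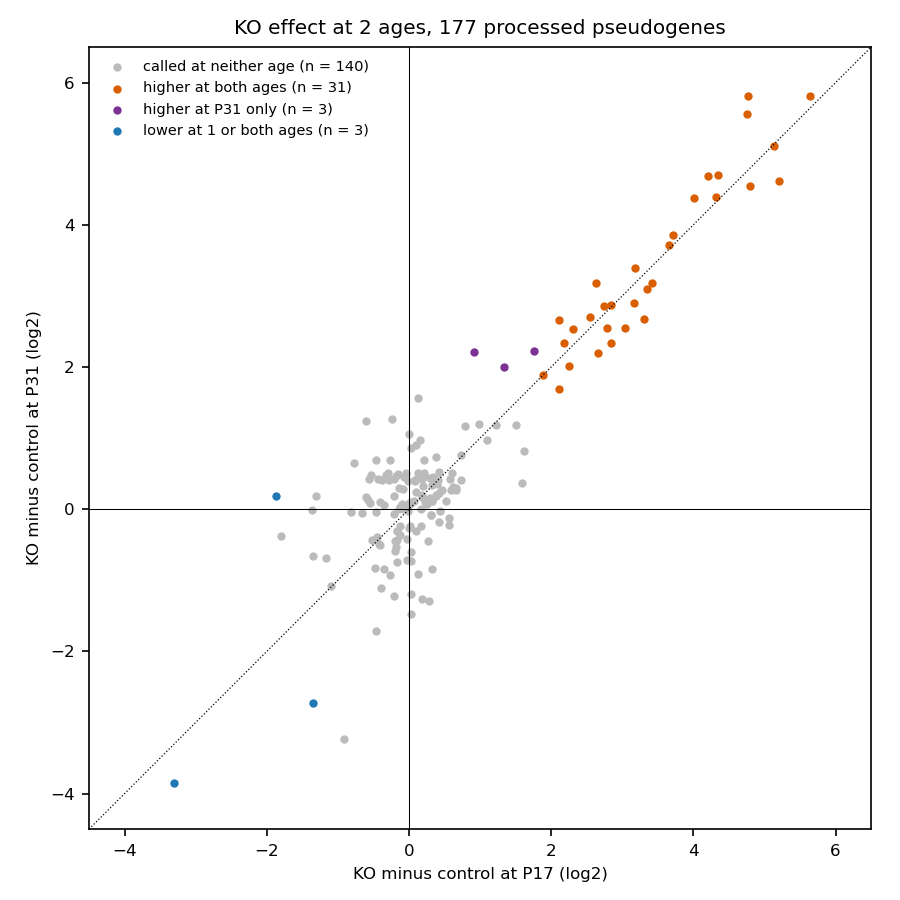
KO minus control on the log2(normalised count + 10) scale at P17 (horizontal) and P31 (vertical) for the 177 processed pseudogenes, coloured by call, with the dotted line of equal effect. The 31 members higher at both ages lie along that line up to 5.64 and 5.81, and 3 members higher at P31 only lie above it.

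The 3 members called at P31 only were Gm11868, Gm14292 and Gm13410. Gm13410, a copy of the RNA helicase gene Ddx6, was at 0 to 3.46 (median 1.217) in P17 controls and at 4.91, 11.8, 16.2, 12.9 and 15.1 in P17 KO. The controls at P31 were at 3.67, 5.78, 1.49, 2.49 and 3.79, and the P31 KO libraries at 73.7, 46.2, 52.6, 38.9 and 51.5. The KO libraries were above the controls at both ages. The log2 fold change was 0.92 ± 0.35 (SE, adjusted p = 0.234) at P17 and 2.20 ± 0.37 (adjusted p = 0.000749) at P31, and the difference of 1.29 did not pass (adjusted p = 0.528). Gm11868, a copy of Cyb5r4, and Gm14292, a copy of Wtap, had P17 log2 fold changes of 1.76 and 1.34 with adjusted p of 0.0685 and 0.108. Which age calls these 3 depends on the setting: all 3 were called at P17 by DESeq2, and none of the 3 at P31 by edgeR (adjusted p of 0.0629, 0.191 and 0.0683 for Gm11868, Gm14292 and Gm13410). Gm11868 was also lost at P31 with either covariate and with only the groups compared, and Gm14292 with the latter. Without P17 KO library 1 the adjusted p of Gm11868 at P17 was 0.00333, and the count at P17 was 33 higher and 1 lower.

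Next, each copy was set against its parent gene within the same library. The symbol named a parent for 46 members, and for 45 of them the named gene was also the closest coding transcript, Csf1r-ps being the exception with Csf3r closest. For each library the difference log2(copy + 10) minus log2(parent + 10) was taken and compared between genotypes by a two-sided exact permutation test at each age, 92 tests in all, unadjusted. The smallest p this design allows is 0.001263 at P17 and 0.007937 at P31. In all 12 pairs whose copy was called higher, every KO library was above every control at both ages; as the copy was chosen for its rise, this is a description and adds no support. Of the other 34 named pairs, the ratio was separated for 3 at P17 (Csf1r-ps and Hdac1-ps upward, Ldhb-ps downward) and for 2 at P31 (Csf1r-ps and Hdac1-ps), and an exact p under 0.05 was reached by 8 at P17 and 4 at P31.

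The pair with the widest gap was Ndufs5-ps and Ndufs5. The copy made up 0 to 1.95% of the 2 together in P17 controls (median 0.734%) and 89.0, 84.7, 85.4, 79.2 and 86.7% in P17 KO. At P31 its share was 0.298, 0.522, 0.581, 0.761 and 0.721% among controls, and 86.2, 88.2, 89.5, 89.1 and 89.8% among KO libraries. The parent moved the other way, from 351 ± 73.0 (SD, n = 7) to 78.1 ± 38.4 (SD, n = 5) at P17 and from 347 ± 37.7 to 53.4 ± 15.4 (SD, n = 5 each) at P31. Its log2 fold changes were -2.11 ± 0.34 (SE, adjusted p = 0.000496) and -2.52 ± 0.36 (adjusted p = 0.000108). The sum of copy and parent was 354 in P17 controls and 575 in P17 KO, and 349 and 476 at P31. The genotypes thus differed less in the sum than in either part. P17 KO library 1 is included in the P17 KO sum, and without it the mean of the copy alone fell from 496 to 331.

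Atp6v0c-ps2 held 0.755% ± 0.166 of copy plus parent in P17 controls (SD, n = 7) and 19.8% ± 6.05 in P17 KO (SD, n = 5), and 0.942% ± 0.230 and 43.3% ± 2.86 at P31 (SD, n = 5 each). Atp6v0c was lower in the KO at P31, with a mean of 3335 against 1405 and a log2 fold change of -1.26 ± 0.20 (SE, adjusted p = 0.000465), but not at P17 (-0.46, adjusted p = 0.275). Rps3a3 held 28.0% ± 2.03 of copy plus Rps3a1 in P17 KO and 24.9% ± 3.36 in P31 KO, against 0.428% and 0.330% in the controls. Tdg-ps2 held 37.3% ± 7.02 and 40.7% ± 3.90 in the KO and 0% in every control, and Pcna-ps2 held 17.4 to 21.8% in P17 KO and 18.5 to 22.9% in P31 KO, against 8.36% in P31 control library 4 and at most 0.84% in any other control.

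**Figure D3:**
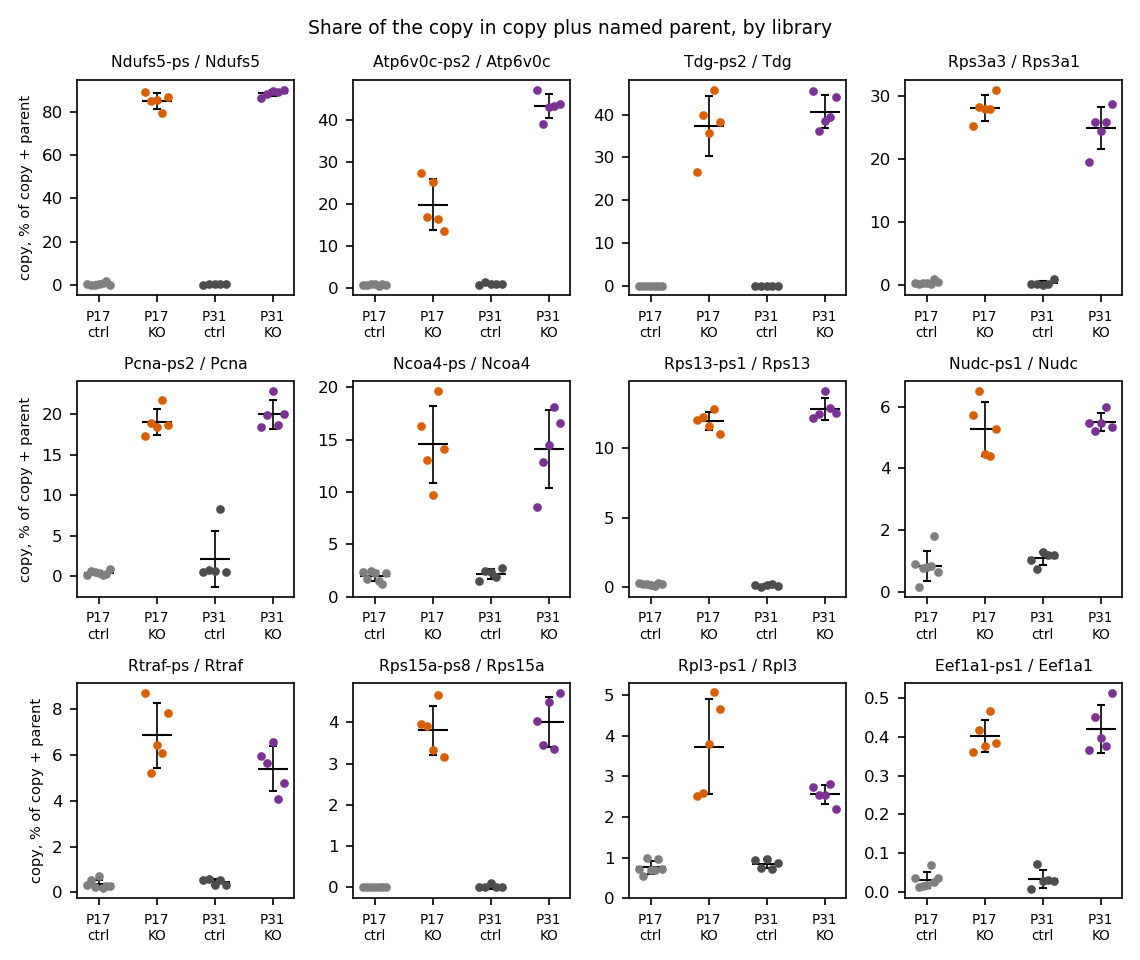
Share of each copy in copy plus named parent (percent, vertical axis, own scale per panel) for the 12 named pairs whose copy was higher in the KO, with each point 1 library, the bar the mean and whiskers 1 SD. In every panel the KO points lie above all control points, from under 0.6% for Eef1a1-ps1 to over 79% for Ndufs5-ps.

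The same ratio was taken for the 34 higher members and their best matching spliced coding relative, 32 distinct genes, with Hist1h2al paired only with a more distant histone gene. The KO libraries were all above the controls for 33 of 34 at P17 (Gm14292 overlapped) and for 34 of 34 at P31. As these copies too were chosen for their rise, this is a description and adds no support. The mean log2 ratio differed by 1.3 to 7.24 at P17 and by 1.34 to 7.63 at P31. The share of the copy in the KO was under 10% for 22 of the 34 at each age. It was 50% or more for Ndufs5-ps at P17 and for Ndufs5-ps and Gm8116, a copy of the methyltransferase gene Carnmt1, at P31 (57.4%). Of the 32 relatives, 2 were lower and 0 higher at P17 (Ndufs5 and Hmgn2 lower), and 3 were lower and 1 higher at P31 (Ndufs5, Atp6v0c and Ublcp1 lower, and the histone gene paired with Hist1h2al higher). Over all tested genes, 0.746% were lower and 0.769% higher at P17, and 1.19% and 1.69% at P31.

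For most of the 34, a copy's share varied less between KO libraries than its level did. The scaling of a library cancels in the share but not in the level, so part of this is built in. Pairs whose copy was not called higher were not examined in this way. The coefficient of variation of the share was below that of the copy for 29 of the 34 members in P17 KO, for 22 of them without P17 KO library 1, and for 27 in P31 KO. The medians were 20.3% for the share and 52.8% for the level in P17 KO, or 18.4% and 23.7% without P17 KO library 1, and 14.1% and 22.1% in P31 KO. Gm15459 held 26.8% ± 0.352 of copy plus Hspa8 in P31 KO (SD, n = 5), with a copy that ranged from 3365 to 5271. Gm18860 held 5.89% ± 0.102 of copy plus Cnot8 in the same libraries.

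Calls differed among copies of the same gene, although the difference between copies was not tested. There were 17 coding genes with at least 2 members each, 41 members together, and 6 of these families held a member higher in the KO. In 5 of the 6 another member was not called, and in the other, Gm6594 and Gm6724, both were. Rps13-ps1 rose as given above, while Rps13-ps2, identical to Rps13 over its whole length, was at 10.3 to 34.6 (median 19.2) in P17 controls and at 49.2, 10.8, 4.99, 7.77 and 5.02 in P17 KO (log2 fold change -0.46, adjusted p = 0.587). No base within Rps13-ps2 tells its reads from those of Rps13, so its value may not measure that copy. P17 KO library 1 was the highest of its group for it, and the other KO libraries were at 10.8 or less. Rps15a-ps8, 92.3% identical to Rps15a, rose from 0 reads, while Rps15a-ps6, 98.7% identical, had a mean of 36.9 in P17 controls and 45.6 in P17 KO (adjusted p = 0.822).

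Hdac1, which encodes a histone deacetylase, had 3 members. Gm4864 was at 0 to 5.41 in P17 controls and 49.2, 107, 141, 154 and 139 in P17 KO, and Gm5824 at 0 to 4.33 and 23.4, 75.8, 72.4, 104 and 80.3. Both were separated between genotypes, with log2 fold changes of 3.42 ± 0.42 (adjusted p = 1.49e-05) and 2.84 ± 0.38 (adjusted p = 3.86e-05). Hdac1-ps, the closest of the 3 to Hdac1 at 99.4%, had a mean of 20.2 ± 6.34 in P17 controls and 53.8 ± 25.4 in P17 KO, with a log2 fold change of 0.99 (adjusted p = 0.272). Hmgb1, which encodes a chromatin protein, had 6 members, of which Gm46432 alone was called (log2 fold change 2.65 ± 0.48, adjusted p = 0.0023, at P17 and 2.19 ± 0.52, adjusted p = 0.0171, at P31). The P31 call of Gm46432 was lost in 9 of 35 alternatives (adjusted p up to 0.257, by edgeR), among them DESeq2, the replicate block, both covariates and leaving out P31 control library 2 (adjusted p = 0.0585) or 5 (adjusted p = 0.0628), and its P17 call was lost with the Y-linked covariate (adjusted p = 0.058). Of 3 copies of the elongation factor gene Eef1a1, Eef1a1-ps1 was called, and Gm13456 and Gm6548 were not.

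**Figure D4:**
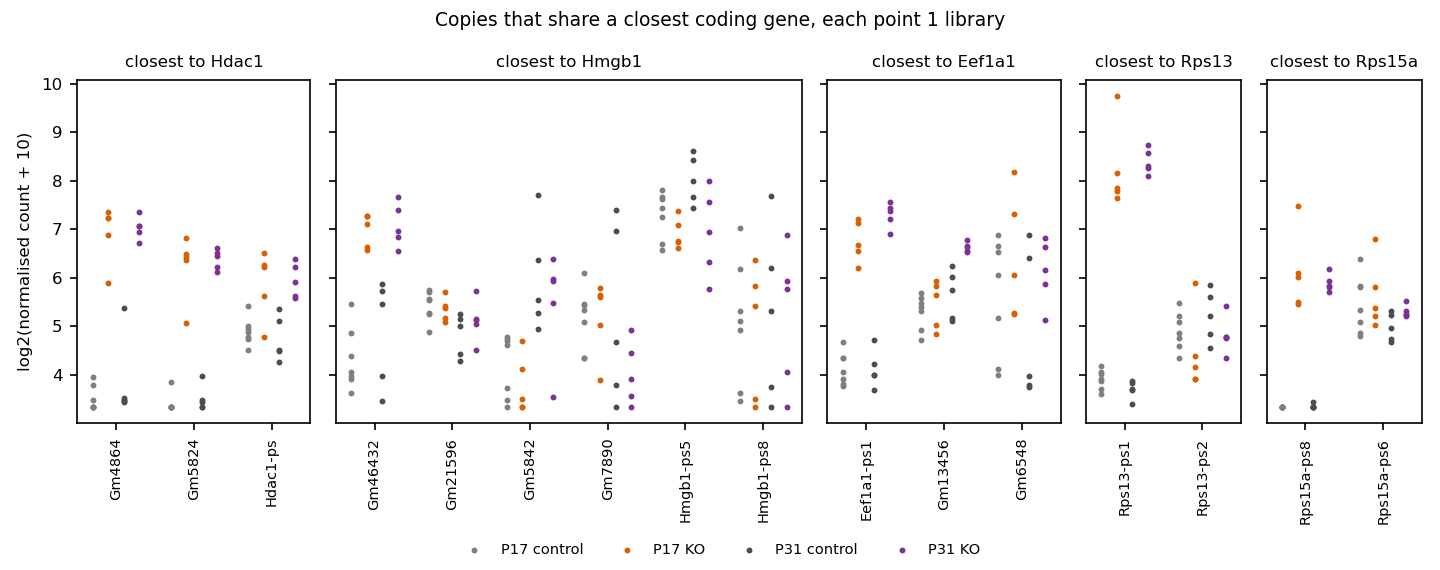
Levels of copies grouped by the coding gene they match best, as log2(normalised count + 10), with each point 1 library coloured by group. Within each panel the called copies (Gm4864, Gm5824, Gm46432, Eef1a1-ps1, Rps13-ps1 and Rps15a-ps8) show KO points above all control points at both ages, and the other copies of the same gene overlap between genotypes in at least 1 age.

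Few members were lower in the KO. Gm12250 (ENSMUSG00000082292, chr11:58187739-58189012), whose closest coding transcript, Gm5431, is 68.5% identical, was at 222 to 614 (median 371) in P17 controls and at 129, 0, 94.9, 44.0 and 0 in P17 KO. The P31 controls lay at 1183, 643, 459, 379 and 263, and the P31 KO libraries at 59.6, 189, 34.8, 0 and 0. The KO libraries were all below the controls, with log2 fold changes of -3.31 ± 0.75 (SE, adjusted p = 0.0186) and -3.85 ± 0.81 (adjusted p = 0.00641). All of its 50-base words were unique, so it shared no stretch of that length with another annotated transcript. At P17, 9 of 35 alternatives ended this call, including those without P17 KO library 2 (adjusted p = 0.0652) and without P17 KO library 5 (adjusted p = 0.0707), edgeR (adjusted p = 0.392) and DESeq2 (adjusted p = 0.314). At P31 the adjusted p was 0.26 by edgeR and 0.0736 by DESeq2.

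Gm7285, a copy of Rps7, was lower at P31 only. It was at 155, 103, 78.5, 99.5 and 184 in P31 controls and at 42.3, 18.8, 2.55, 3.61 and 0.83 in P31 KO, without overlap (log2 fold change -2.72 ± 0.63, adjusted p = 0.0146). The call was lost with the rod covariate (adjusted p = 0.0779) and by edgeR (adjusted p = 0.154). Gm8774, a copy of Txndc9, was lower at P17, from 45.8 to 126 (median 86.6) in controls to 0, 46.3, 0, 20.7 and 37.6 in the KO, where 1 KO library overlapped the lowest control. Its log2 fold change of -1.88 ± 0.48 (adjusted p = 0.0491) was lost in 32 of 35 alternatives and held only without P17 KO library 2, without P17 KO library 5 and without P31 KO library 4. It was also the 1 member that differed between ages in the KO (0.886% of all genes did), with a log2 fold change of 3.07 ± 0.52 from P17 to P31 (adjusted p = 0.00371). Between ages in controls 0 members were called, against 1.46% of all genes. At an unadjusted p under 0.05 there were 9 members, against 1802 of 12868 genes. By edgeR 0 members were called, against 74 of all genes, and by DESeq2 1, against 572.

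The 140 members called at neither age had mean levels between 11.8 and 756 (median 40.2). Their log2 fold changes ran from -1.80 to 1.62 at P17 and from -3.24 to 1.57 at P31. The highest of them, Gm38158, a copy of Hmga2 within Sdccag8, was at 505 to 963 (median 814) in P17 controls and at 747, 826, 1167, 878 and 984 in P17 KO. P31 control libraries were at 574, 584, 855, 501 and 676, and the P31 KO libraries at 440, 550, 815, 855 and 726. The groups overlapped at both ages (log2 fold change 0.25, adjusted p = 0.589, and 0.07, adjusted p = 0.946). Just inside the level that chose the members were Gm29397 and Gm7335, which were at 30.1 and 30.3 in the library that decided it, the lowest of their top 5. Just outside were Gm18736 and Gm13127, at 29.6 and 29.5, and Gm18736 had means of 0.3 and 34.7 in P17 control and KO and 1.3 and 31.1 at P31.

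The members shared sequence features that the filter did not use. The filter still bears on contrasts of the 34 higher in the KO with the 140 called at neither age. Of the 34, 24 had passed it through KO libraries only, and the contrasts below were not split by that route. All 177 were found in GENCODE vM21 by identifier, 167 have 1 annotated exon, and they lie on 20 chromosomes, with lengths from 75 to 4726 bases (median 619). Those higher in the KO lie on 18 chromosomes and have a median length of 641 bases. Of the 34, 33 run without interruption across at least 1 exon junction of their spliced relative, as 164 of the 170 members with such a relative do. Of the 34, 2 lie inside a coding gene on its strand, Ndufs5-ps and Rps3a3, against 35 of the 140 called at neither age. Hosts on the other strand were not counted over all members. Among the 34, Gm20305, Gm6334 and Gm46432 lie inside Sde2, Shcbp1 and Tmem161b on the other strand, and none of these hosts was called at either age. Shcbp1 had a mean of 70.8 in P31 controls and 255 in P31 KO (log2 fold change 2.59, adjusted p = 0.235). Rtraf-ps overlaps an exon of Ssr2 on the other strand, and neither labels nor processing notes say whether the counting used strand, so its reads cannot be told from those of Ssr2.

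The identity of a member to its closest coding transcript had a median of 98.8% (92.0 to 99.9) among the 34 and 97.5% (64.5 to 100%) among the 140. Of the 61 members at 99% or more, 15 were higher in the KO (24.6%), of the 61 between 95 and 99%, 14 (23.0%), and of the 55 below 95%, 5 (9.09%). The share of 50-base words found in no other annotated transcript had a median of 44.4% among the 34 and 53.0% among the 140. Among the 34, Gm20305, a copy of Polr2k, had 0 such words, so its value rests on bases shared with another transcript over that length.

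**Figure D5:**
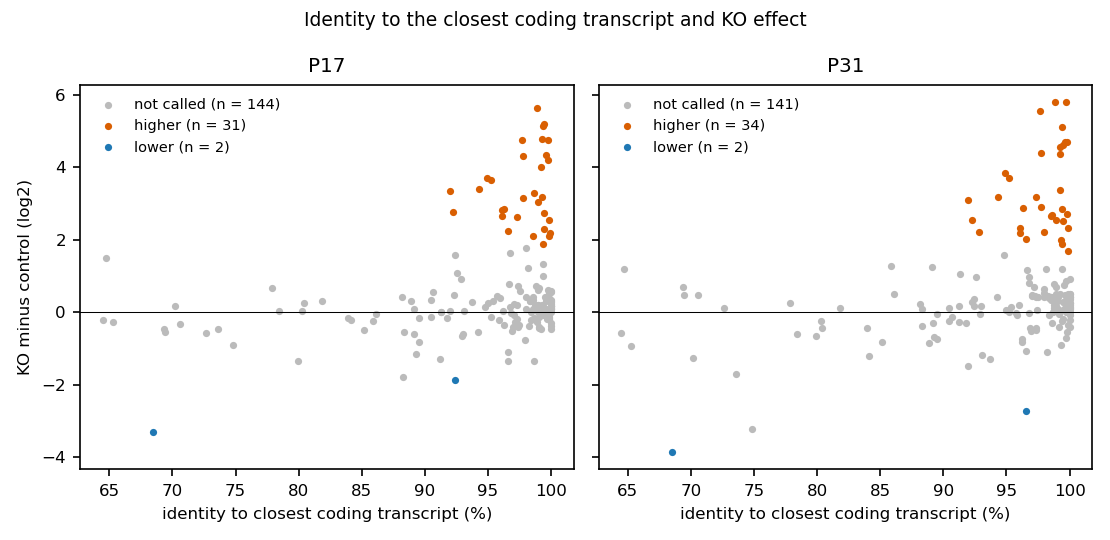
KO minus control (log2, vertical) against the percent identity of each of the 177 members to its closest coding transcript (horizontal), at P17 and P31, coloured by call. The members called higher all lie at 92.0% or above, among many uncalled members of the same identity, and 1 of the lower members lies at 68.5%.

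In the authors' deposited table, at an adjusted p under 0.05, 36 of the members were higher and 1 lower in the KO at P17, and 36 higher and 2 lower at P31. Of those higher there, 31 and 34 were also called higher here.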

How the data were processed

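RNA of sorted retinal microglia was sequenced in 22 libraries. Per the submitters' processing notes, the tools were FastQC 0.72, STAR 2.7.5b, featureCounts, R 3.5.3 and DESeq2 1.22.2, on mm10. The deposited table holds a normalised signal per gene and library, that is, gene counts divided by a size factor set by the authors, with the authors' log2 fold changes and adjusted p-values. Every value was a whole multiple of the worth of 1 read (100% of 349420 non-zero values, tolerance 1e-06), so whole reads were recovered for the count tests.

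The main test was limma 3.58.1 (R 4.3.3, trend and robust) on log2(value + 10), over the 12868 of 28984 genes at 30 or more in at least 5 libraries, with 4 group means and Benjamini-Hochberg adjustment over all of them at 0.05. Fold changes on this scale understate the change of low genes. The script was tested on simulated data. Alternatives were edgeR 4.0.16, DESeq2 1.42.0, voom, other scalings, pseudocounts, filters, covariates, a replicate block and leaving out each library. Copies were aligned to GENCODE vM21 coding transcripts with blastn 2.17.0, and unique 50-base words were counted among annotated transcripts only, not the genome. Floors of 3 reads cover counting error only.

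Named members were the called members with the largest non-overlapping change (up to 10 higher and 6 lower at each age), those called between ages, those whose symbol names a parent, the 3 with the highest mean, and 2 on each side of the filter. Others were named after their values were seen: the remaining called members, copies that share a relative with a called member, and members named for a sequence feature. Not every called member and relative is reported here by name. The members and lists were chosen with earlier results of these data known.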

Additional observations from a re-analysis of the deposited data

Results flagged for a closer look

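In 20 members examined, 80 groups of libraries were tested for a library whose gap to its nearest neighbour was large against the range of its group (Dixon's test), and 10 met this. Chance alone gives about 1 in 20 groups if values are normal and groups independent. These groups share the same 22 libraries, so the 10 cannot be set against that rate. In 6 of the 10 the library was P17 KO library 1. It was the highest of its group for Rps3a3 (3218 normalised counts), Gm11942 (1576), Gm10036 (1101), Rps13-ps1 (855.2) and Rtraf-ps (437.4), and the lowest for Tdg-ps2 (4.915). Over the 34 members higher in the KO, this library lay above the other P17 KO libraries for 16 and below them for 12, and for the share of the copy in copy plus relative the numbers were 8 and 12. P31 control library 5 was the highest of its group for Gm11942 (47.38) and Rps3a3 (37.9), and P31 control library 4 for Pcna-ps2 (62.21). Rps15a-ps8 had 1 read in P31 control library 3 (0.7474) and 0 in the other 4 controls, a pattern that this test always flags. All of these control values lay below every KO library of the same age.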

How the results depend on the processing

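The number of members called in the KO was 33 at P17 and 36 at P31, and other settings gave 28 to 34 and 24 to 36, with 24 at P31 by edgeR. The exception was a filter of 100 in at least 5 libraries, which left 52 members and gave 20 and 21. Leaving out each library gave 32 to 34 at P17 and 35 to 36 at P31. Between ages in controls the count was 0, and 1 with DESeq2 size factors in limma, with a pseudocount of 64, with only the groups compared and by DESeq2, and 0 to 2 when each library was left out (2 without P17 KO library 1, 1 without P17 KO library 4 or P31 control library 2). Between ages in the KO it was 1, and 2 with a pseudocount of 64, no filter or the Y-linked covariate, 0 with only the groups compared or by edgeR, and 1 to 2 when each library was left out (2 without P17 KO library 1 or P31 control library 1). The cause of these moves was not tested, other than that fewer members were tested under the stricter filter. The difference between KO effects gave 0 in every setting. Over single members, 2474 values kept direction and side of the threshold, 75 lost the call, 8 gained it and 1 reversed, Gm8774 at P31, from 0.18 to -0.046 without P31 KO library 4, with values of -0.046 to 0.319 when each library was left out. The 12 named-parent ratios with a higher copy kept their direction at both ages in every setting run.

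Replicate numbers recur across groups, and the 30 same-number pairs correlated between -0.14 and 0.12, with 2 above 0.1. Pairs of different numbers were not compared, so these values cannot settle whether the numbers pair the libraries. With a replicate block 30 members were called at P17 and 35 at P31, 0 between ages in controls, 1 in the KO and 0 for the difference.

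Depth limits the low members most. A control mean of 3 reads corresponds to about 3.42 normalised counts at P17 and 2.41 at P31, so a control at 0 bounds the fold change from below only.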
